A study of Mus musculus with 6 samples.

Results

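Macrophages can be carried along when fibroblasts are grown from tissue, and 38 genes of macrophages and other myeloid cells were followed here in 6 fibroblast cultures. The genes were taken as a named list, and each was read by the probe set annotated to that symbol alone that had the highest mean over the 6 arrays. All 38 were measured, of 18193 genes with such a probe set. The cultures were 3 samples of Delta9 fibroblasts, with the Delta9 allele of Lmna (Lmna encodes the A-type lamins of the nuclear lamina), and 3 samples of wild-type (WT) fibroblasts from siblings. All were primary mouse cells of the strain given as C57bl6X129S3/J, taken at passage 3 and held without serum for 72 hours, and each was put on 1 Affymetrix array. Their age is given as adult in the sample labels and as post-natal in the design text. No label gives the zygosity of the allele, the tissue the cells were grown from, any sorting step or the number of animals, so the p-values below measure the spread between these samples only. All values are log2 probe set values as deposited, and a difference is Delta9 minus WT.

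Macrophages depend on signals through the receptor Csf1r, and the transcription factor PU.1, encoded by Spi1, sets up much of their gene programme. They take up particles with scavenger and Fc receptors, digest them in lysosomes rich in Cd68, lysozyme and cathepsin S, and are the main source of the complement protein C1q. Some of the listed genes are also active outside the lineage: Lgals3 and Cyba are made by many cell types, fibroblasts included, and Ptprc, Cd53, Laptm5, Coro1a and Hcls1 are shared by most blood leukocytes.

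Macrophage genes gave a clear signal in every culture, and their level was lowest in WT replicate 3. Of the 38 members, 35 had a mean above that of the median gene (4.79). Among them were the defining markers Csf1r, Adgre1 and Spi1, and Ptprc, which most leukocytes share. Relative to its own mean over the arrays, the average member stood at 0.46, 0.27 and 0.98 in Delta9 replicates 1, 2 and 3, against 0.28, -0.27 and -1.72 in WT replicates 1, 2 and 3. Delta9 replicate 3 was thus the highest culture, WT replicate 3 the lowest by far, and WT replicate 1 lay among the Delta9 cultures. WT replicate 3 was the lowest array for 37 of the 38 members, where it was the lowest for 15.2% of all genes, and Delta9 replicate 3 was the highest for 29, against 17.7% of all genes. The exception at the low end was Cd163, which was dim on every array and lowest in WT replicate 1. Because each array measured RNA of a whole culture, fewer macrophages and less of these RNAs per cell cannot be told apart.

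**Figure D1:**
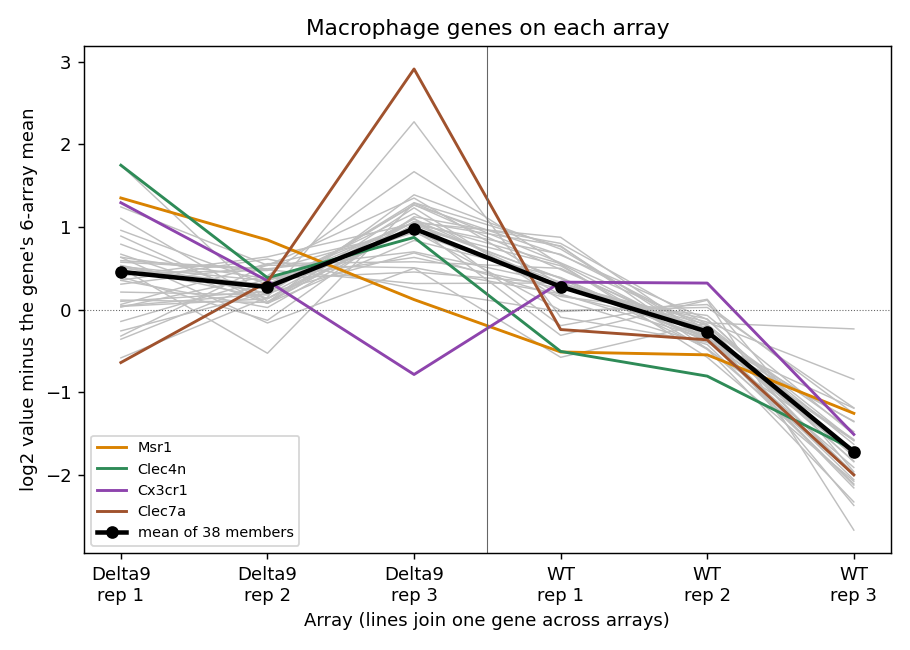
Log2 value of each of the 38 members minus its own mean over the 6 arrays (y axis) on each array (x axis), with 1 grey line per gene, 4 genes in colour and the mean of the 38 in black. The black line peaks at 0.98 in Delta9 replicate 3 and falls to -1.72 in WT replicate 3, while Msr1 and Cx3cr1 are lower in Delta9 replicate 3 than in the other Delta9 samples.

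All 38 members had a higher mean in Delta9, where 46.8% of all genes did. The median difference over the members was 1.08, a 2.11-fold higher level, beside a median of -0.01 over all genes. None of the 38 passed an adjusted p of 0.05 in limma, and the lowest adjusted p was 0.220. Over all genes 0.0605% passed, 0.0055% as higher and 0.055% as lower. At an unadjusted p under 0.05 there were 12 members, all higher, where 10.6% of all genes reached that level, 4.54% as higher and 6.06% as lower. The 3 Delta9 values lay above the 3 WT values for 13 members, against 7.27% of all genes (17.3% in either direction). For the other 25 members the groups overlapped, most often through WT replicate 1, which was above the lowest Delta9 value for 23 members. The spread inside the WT group was wide: the median range over members was 0.99 in Delta9 and 2.17 in WT, while over all genes both medians were close to 0.3 (0.31 in Delta9 and 0.30 in WT).

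The size of the difference depended on which WT sample was left out, and fell without WT replicate 3 and rose without WT replicate 1. Without WT replicate 3 the median over the members was 0.52, and 0 members passed the adjusted threshold in limma (0.022% of all genes). Of the 38 members 37 were then still higher in Delta9 (51.2% of all genes) and 13 did not overlap (11.7% of all genes were higher without overlap). Without WT replicate 1 the median was 1.58, 29 members did not overlap, against 12.6% of all genes, and 31 had an unadjusted p under 0.05, against 11.2%. Without Delta9 replicate 3 only 3 members had such a p, against 13.7%. With both extreme cultures, Delta9 replicate 3 and WT replicate 3, left out, the median was 0.33, 31 members were higher, against 52.4% of all genes, and 7 had an unadjusted p under 0.05, against 14.9%. This comparison was chosen after seeing the data. Csf1r and Adgre1, which define or mark the lineage, the leukocyte gene Ptprc and the adaptor gene Tyrobp were among the members not higher. They then differed by -0.026, -0.18, -0.071 and -0.10, in that order. Spi1, also a defining marker, stayed higher, at 7.78 and 7.61 in Delta9 replicates 1 and 2, against 7.56 and 6.91 in WT replicates 1 and 2.

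**Figure D2:**
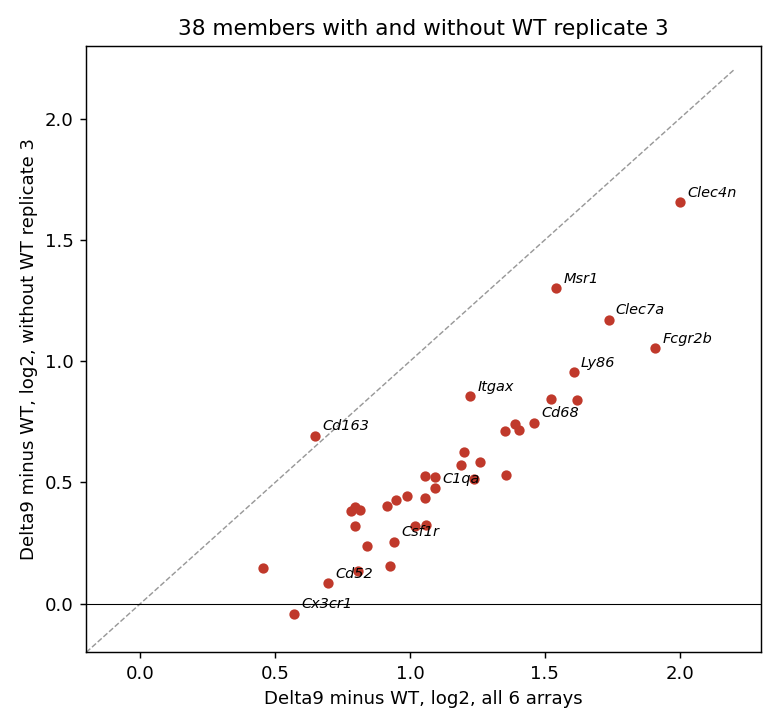
Difference of each of the 38 members, Delta9 minus WT in log2 units, with all 6 arrays (x axis) and without WT replicate 3 (y axis), 1 point per gene, with the dashed line marking equal values. All points but Cd163 lie below the line; Clec4n and Msr1 stay at 1.66 and 1.30 without that array, whereas Csf1r is at 0.26 and Cx3cr1 at -0.041.

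WT replicate 3 also stood apart in control probe sets. Its signal for 18S ribosomal RNA was 7.86, against 9.21 to 10.39 on the other arrays. That signal read 9.37, 9.51 and 10.39 in Delta9 replicates 1, 2 and 3, against 10.08, 9.21 and 7.86 in WT. It thus shared its highest array, its lowest array and the order of the WT samples with the mean of the members. In WT replicate 3 the 3' minus 5' difference for beta-actin, a measure of RNA integrity and labelling, was 1.41, against 0.51 to 0.86. The same measure for Gapdh did not set it apart, at 0.51, against 0.23 to 0.57. Poly-A spike-in transcripts, added to the RNA before labelling, averaged 5.20 in Delta9 replicate 3 and 4.85 in WT replicate 1. The remaining 4 arrays averaged 5.64 to 6.10. Within those 4 arrays the median member difference was 1.37, 30 members did not overlap (22.9% of all genes were higher without overlap), 24 had an unadjusted p under 0.05 (16.0% of all genes) and 0 passed the adjusted threshold (0.335% of all genes). Between the remaining pair, Delta9 replicate 3 and WT replicate 1, the median was 0.63. With this split as a block, 27 members had an unadjusted p under 0.05 in limma, against 18.1% of all genes, and 0 passed after adjustment, when 0.819% of all genes did. With the replicate number as a block instead, 9 members had an unadjusted p under 0.05 in limma, against 7.41% of all genes. The part of these technical differences in the member values was not tested. Lmna itself read 7.07, 6.95 and 6.11 in the Delta9 samples, against 8.35, 8.89 and 8.78 in the WT samples, without overlap (difference -1.96, SE 0.28, limma adjusted p 0.0899); the position of the probe set in the gene was not determined, so it does not check the allele.

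The receptor and the transcription factor at the head of the lineage were clearly measured. Csf1r, the receptor for CSF1 and IL-34, read 11.24, 10.91 and 11.92 in the Delta9 samples, against 11.56, 10.65 and 9.05 in the WT samples. WT replicate 1 was above 2 of the 3 Delta9 values, so the groups overlapped, and the difference of 0.94 (SE 0.60) did not pass (limma adjusted p 0.618). The other probe sets of Csf1r had the same order of arrays at the ends, with differences of 1.02 and 0.87. Spi1, which encodes PU.1, read 7.78, 7.61 and 8.19 in Delta9, against 7.56, 6.91 and 5.50 in WT. Its groups did not overlap, by a margin of 0.05 between Delta9 replicate 2 and WT replicate 1, and the difference was 1.20 (SE 0.49, limma adjusted p 0.452).

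Adhesion and surface markers, grouped here with the cytosolic marker Aif1, had the lowest median difference but for the NADPH oxidase, 0.87 over 6 genes. Adgre1, which encodes F4/80, read 8.24, 7.71 and 8.96 in Delta9, against 8.64, 7.66 and 5.83 in WT. The groups overlapped, with WT replicate 1 above 2 of the Delta9 values (difference 0.93, SE 0.68). Aif1, the calcium-binding protein also called IBA1, differed by 1.06 (SE 0.48), and Ms4a7, a four-span membrane protein of macrophages, by 0.81 (SE 0.63). Itgam, the integrin CD11b, was dim, between 2.81 and 4.75, and differed by 0.80 (SE 0.43). Itgax, the integrin CD11c, read 3.83, 4.56 and 6.68 in Delta9, against 4.32, 4.02 and 3.06 in WT. Delta9 replicate 3 stood above the rest and Delta9 replicate 1 was below 2 of the WT values (difference 1.22, SE 0.71). Cx3cr1, the fractalkine receptor, went another way and was highest in Delta9 replicate 1: it read 8.59, 7.65 and 6.51 in Delta9, against 7.63, 7.62 and 5.79 in WT. Its groups overlapped (difference 0.57, SE 0.65). None of the 6 markers of this kind had an unadjusted p under 0.05.

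**Figure D3:**
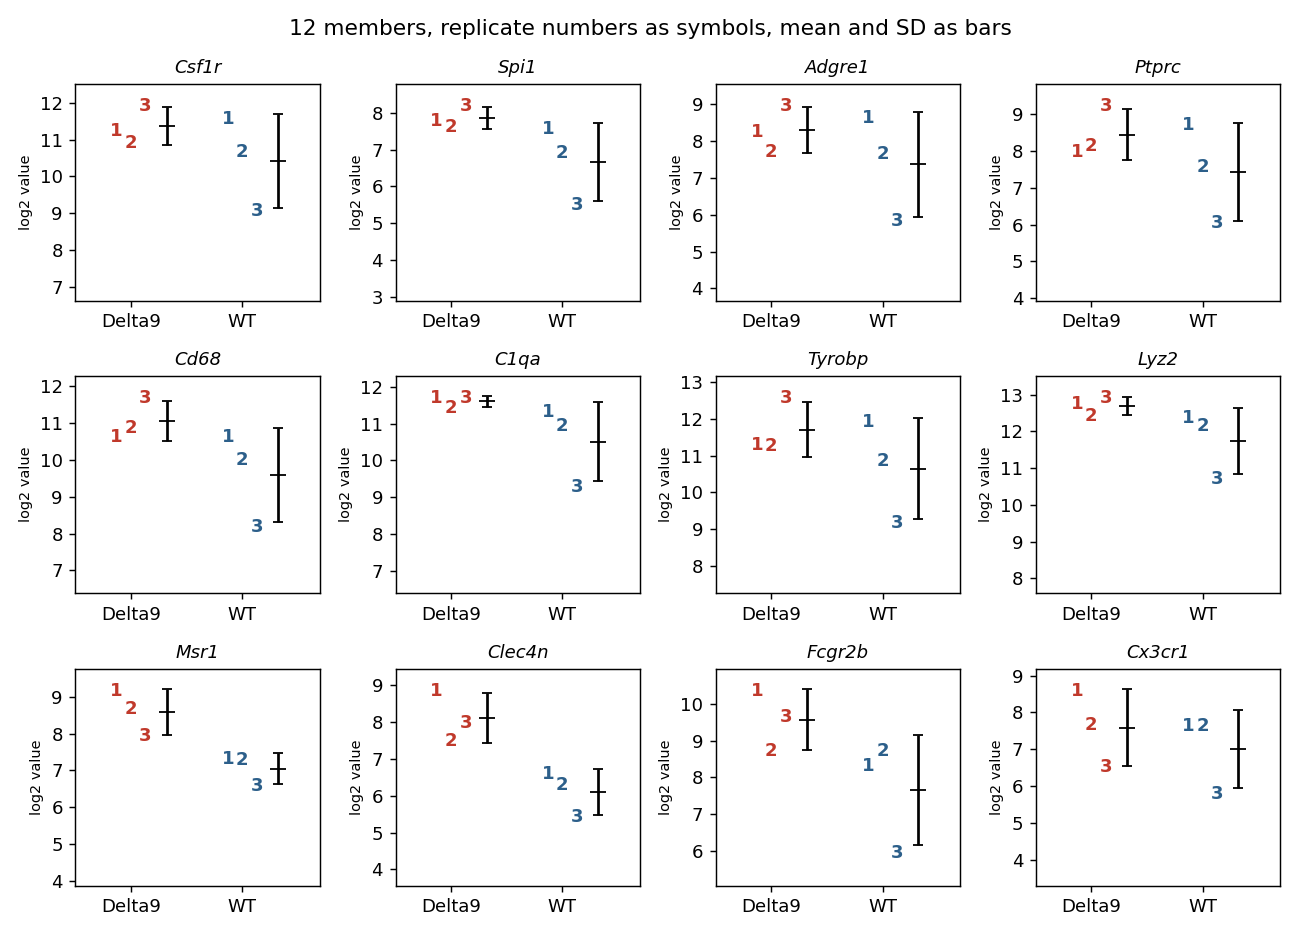
Log2 values (y axis, with the same span in each panel) of 12 members in Delta9 (left, red) and WT (right, blue); the digits are replicate numbers and the black bars the mean and SD of 3 samples. In Csf1r, Adgre1, Ptprc and Tyrobp, WT replicate 1 lies among the Delta9 values, whereas for Msr1 and Clec4n the 3 WT values all lie below the 3 Delta9 values.

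Receptors that recognise microbes and debris held the members of lowest p. Clec4n, the C-type lectin dectin-2 that binds fungal mannans, read 8.86, 7.50 and 7.98 in Delta9, against 6.61, 6.31 and 5.42 in WT. The lowest Delta9 value was 0.89 above the highest WT value, the widest gap of the 38 members, and the difference of 2.003 (SE 0.42), or 4.01-fold, was the largest of the 38 (limma adjusted p 0.220). A further probe set of Clec4n gave 2.55. Msr1, the class A scavenger receptor that takes up modified lipoproteins, read 9.17, 8.66 and 7.94 in Delta9, against 7.31, 7.27 and 6.57 in WT. Its groups did not overlap either, by a gap of 0.63, and it was highest in Delta9 replicate 1 rather than replicate 3. The difference was 1.54 (SE 0.34, limma adjusted p 0.223), or 2.91-fold, with 1.40, 1.87 and 1.56 on its other 3 probe sets. With array weights Msr1 was the 1 member that passed (difference 1.58, SE 0.24, limma adjusted p 0.0407), when 0.764% of all genes passed.

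The other 6 receptors of this kind overlapped between the groups. Ly86, also called MD-1 and a partner of the toll-like receptor relative CD180, read 9.38, 8.35 and 9.50 in Delta9, against 8.39, 7.85 and 6.16 in WT. It overlapped because WT replicate 1 was just above Delta9 replicate 2, and differed by 1.61 (SE 0.58). Mrc1, the mannose receptor, differed by 1.35 (SE 0.72). Clec7a, the beta-glucan receptor dectin-1, had the widest range of all members: it read 4.58, 5.56 and 8.13 in Delta9, against 4.98, 4.86 and 3.23 in WT. As for Itgax, Delta9 replicate 3 stood above the rest and Delta9 replicate 1 was below 2 of the WT values, so the groups overlapped (difference 1.74, SE 0.90). Cd14, a co-receptor for bacterial lipopolysaccharide, differed by 0.46 (SE 0.31), the smallest difference of the 38, and Lgals3 by 0.78 (SE 0.41). Cd163, the haemoglobin scavenger receptor, read 3.29, 2.50 and 3.16 in Delta9, against 2.08, 2.50 and 2.42 in WT, and lay in the lowest 40% of genes by signal (difference 0.65, SE 0.22, limma adjusted p 0.385).

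The 3 chains of C1q, the recognition unit of the classical complement pathway, had similar values over the arrays. C1qa read 11.69, 11.43 and 11.69 in Delta9, against 11.31, 10.94 and 9.28 in WT. C1qb read 11.29, 11.19 and 11.40 in Delta9, against 11.02, 10.43 and 8.86 in WT. C1qc read 10.72, 10.75 and 11.25 in Delta9, against 10.60, 10.04 and 8.29 in WT. In all 3 the groups did not overlap (7.27% of all genes were higher without overlap). The Delta9 values were close to each other, and WT replicate 3 was far below the other WT samples. The differences were 1.09 (SE 0.48), 1.19 (SE 0.49) and 1.26 (SE 0.54), with limma adjusted p of 0.480, 0.460 and 0.472. Without WT replicate 3 the difference of C1qa was 0.48 (SE 0.16).

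The promoters of member genes are shown because PU.1 and other factors of its ETS family bind sites with a GGAA core. The 250 bases before the start site were available from RefSeq (GRCm38.p6) for 29 of the 38 members, in 34 windows, and were searched for the letters GGAAGT on both strands (ACTTCC on the other), with no other motif searched. The letters were present in 12 of the 34 windows (35.3%), of 11 genes, and in 19.7% of 32851 windows of all genes. The windows of 4 genes are printed 5' to 3' on the strand of the gene, which is the minus strand in each, with the match in capitals: C1qb at chr4:136886201-136886450 (match beginning 53 bases before the start site), C1qc at chr4:136892915-136893164 (195 bases before), Lyz2 at chr10:117282273-117282522 (100 bases before) and Fcgr2b at chr1:170976072-170976321 (31 bases before). They stand for members whose groups do not overlap (C1qb, C1qc and Lyz2) and for the Fc receptor with the largest difference (Fcgr2b). A match describes the letters and is not shown to be a binding site.
C1qb: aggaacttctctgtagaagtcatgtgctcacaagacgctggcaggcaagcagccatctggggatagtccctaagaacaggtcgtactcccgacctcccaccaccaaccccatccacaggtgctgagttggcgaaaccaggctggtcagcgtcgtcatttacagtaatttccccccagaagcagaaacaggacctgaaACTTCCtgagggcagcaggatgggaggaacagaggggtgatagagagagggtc
C1qc: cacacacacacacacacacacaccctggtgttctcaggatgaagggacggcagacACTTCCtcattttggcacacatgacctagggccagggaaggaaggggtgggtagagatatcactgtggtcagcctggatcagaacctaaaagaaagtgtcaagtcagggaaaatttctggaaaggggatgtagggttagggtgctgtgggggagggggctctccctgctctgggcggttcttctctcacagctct
Lyz2: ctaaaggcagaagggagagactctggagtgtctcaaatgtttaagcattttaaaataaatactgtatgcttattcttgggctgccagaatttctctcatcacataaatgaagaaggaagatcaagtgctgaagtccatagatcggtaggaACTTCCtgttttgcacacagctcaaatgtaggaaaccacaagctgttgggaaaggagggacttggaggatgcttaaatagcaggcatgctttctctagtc
Fcgr2b: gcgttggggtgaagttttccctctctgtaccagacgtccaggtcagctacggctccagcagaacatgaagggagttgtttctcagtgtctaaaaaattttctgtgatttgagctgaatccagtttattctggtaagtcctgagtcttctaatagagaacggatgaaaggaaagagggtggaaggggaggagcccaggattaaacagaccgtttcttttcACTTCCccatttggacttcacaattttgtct

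Lysosomal and killing proteins held 3 members without overlap among 5, each by a small margin, where 7.27% of all genes were higher without overlap. Cd68, a lysosomal membrane glycoprotein, read 10.64, 10.86 and 11.68 in Delta9, against 10.63, 10.00 and 8.18 in WT. The lowest Delta9 value and WT replicate 1 were almost equal, at 10.64 and 10.63, so that the lack of overlap rests on that margin; the difference was 1.46 (SE 0.61, limma adjusted p 0.463). Lyz2, lysozyme of myeloid cells, read 12.75, 12.42 and 12.90 in Delta9, against 12.38, 12.15 and 10.71 in WT, again without overlap but with a margin of 0.04 (difference 0.95, SE 0.41). Pld4, an endolysosomal nuclease, differed by 1.35 (SE 0.54), without overlap by a margin of 0.009. Mpeg1, the pore-forming perforin-2, and Ctss, the protease cathepsin S, overlapped and differed by 1.06 (SE 0.58) and 0.99 (SE 0.48). The subunits of the NADPH oxidase, which makes superoxide, overlapped as well: Cybb differed by 0.84 (SE 0.63) and Cyba by 0.79 (SE 0.42).

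Fc receptors for IgG and their signalling partners had a median difference of 1.46. Fcgr3, an activating receptor, read 10.15, 9.49 and 10.35 in Delta9, against 9.36, 8.95 and 6.82 in WT, without overlap (difference 1.62, SE 0.63, limma adjusted p 0.436). Fcgr1, the high-affinity receptor, read 8.09, 7.38 and 7.35 in Delta9, against 7.03, 6.49 and 4.72 in WT, also without overlap (1.52, SE 0.56, limma adjusted p 0.417). Fcgr2b, the inhibitory receptor, read 10.36, 8.71 and 9.63 in Delta9, against 8.30, 8.72 and 5.94 in WT. It was highest in Delta9 replicate 1, and WT replicate 2 exceeded Delta9 replicate 2 by 0.02, so it overlapped (1.91, SE 0.75). Fcgr2b and Fcgr3 are close relatives in sequence, and the chosen probe set of Fcgr2b is of the _s_at type, which can detect more than 1 transcript. Its other 3 bright probe sets differed by 1.19, 1.73 and 1.97.

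The adaptors that carry signals of such receptors, and Trem2, overlapped between the groups as Csf1r did. Tyrobp, the adaptor DAP12, read 11.29, 11.26 and 12.56 in Delta9, against 11.90, 10.85 and 9.17 in WT, with WT replicate 1 above 2 Delta9 values (difference 1.06, SE 0.68). Trem2, a lipid-binding receptor that signals through DAP12, read 8.35, 8.73 and 9.99 in Delta9, against 8.86, 7.74 and 6.24 in WT, with the same overlap (1.40, SE 0.69); its other, dimmer probe set differed by 0.06. Fcer1g, the common Fc receptor gamma chain, differed by 1.24 (SE 0.60).

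Genes shared by most leukocytes had a median difference of 0.97 over 6 members. Ptprc, which encodes CD45, read 7.98, 8.13 and 9.23 in Delta9, against 8.70, 7.56 and 6.03 in WT. WT replicate 1 again exceeded 2 Delta9 values, and the difference was 1.02 (SE 0.66). Cd53, a tetraspanin, and Hcls1, an actin regulator of blood cells, did not overlap, Cd53 by a margin of 0.031, and differed by 1.39 (SE 0.54) and 0.81 (SE 0.35). Laptm5, a lysosomal membrane protein, Coro1a, an actin-binding coronin, and Cd52, a small surface glycopeptide, overlapped and differed by 1.09 (SE 0.52), 0.91 (SE 0.42) and 0.70 (SE 0.62).

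**Figure D4:**
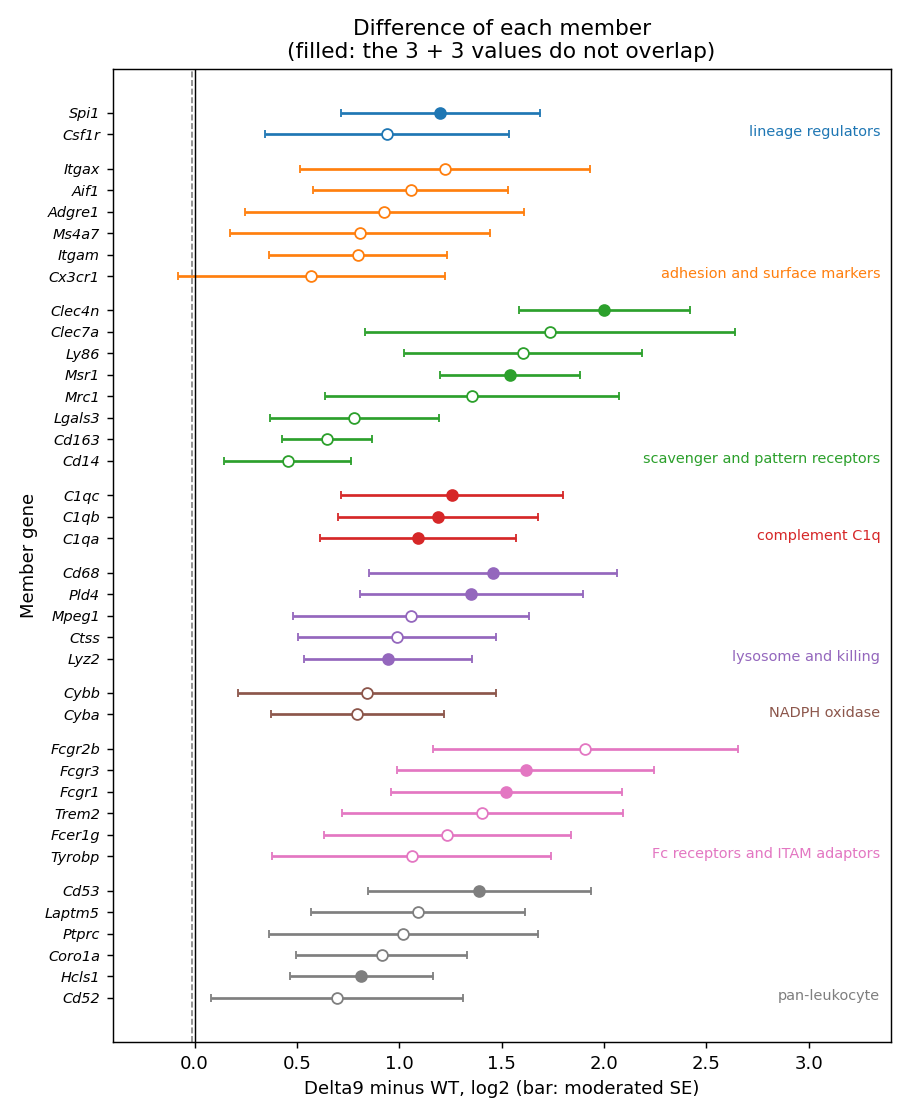
Difference Delta9 minus WT in log2 units (x axis) of the 38 members, grouped by role, with the moderated standard error as bars and filled symbols where the 3 Delta9 and 3 WT values do not overlap; the dashed line is the median of all genes, -0.01. All 38 points are to the right of 0, from 0.46 for Cd14 to 2.003 for Clec4n.

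Correlations between members were high over the 6 arrays and lower without WT replicate 3. Over the 703 pairs of members the median Pearson r across the 6 arrays was 0.90, and 496 pairs (70.6%) were above 0.8. Without WT replicate 3 the median was 0.68, with 229 pairs (32.6%) above 0.8, and without both replicates 3 it was 0.54, with 188 pairs (26.7%). Taken as deviations from the group means over all 6 arrays, the median was 0.86. These coefficients rest on 6 arrays that all members share, and are given as a description; the 14 fibroblast markers, on the same arrays, had a median pairwise r of 0.30. By Pearson r, the closest to the mean of the other 37 members were Spi1, C1qc and Fcer1g (r = 0.998, 0.995 and 0.994, with Spearman's rho of 0.94, 0.83 and 0.83). The farthest by r were Cd163, Cx3cr1 and Msr1 (r = 0.46, 0.53 and 0.68, with rho of 0.54, 0.37 and 0.71). The order by rho differed, with Ly86 closest at 1.0 and with Lgals3 and Hcls1, both at 0.49, farther than Msr1. The WT samples ranked alike in 33 of the 38 members, with replicate 1 highest and replicate 3 lowest, as in 16.2% of all genes.

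Members also differed in how they departed from the common level. After the mean of the other 37 members on the same array was taken off, the higher Delta9 values of Clec4n were mostly in replicate 1, at 1.32, 0.11 and -0.11 in Delta9, against -0.80, -0.55 and 0.03 in WT. Msr1 then stood at 0.92, 0.58 and -0.88 in Delta9, against -0.81, -0.29 and 0.48 in WT, so its groups overlapped on this scale. Fcgr3 was the member without overlap, at 0.52, 0.03 and 0.19 in Delta9, against -0.10, 0.03 and -0.67 in WT, by a margin of 0.001. Clec7a and Itgax were far above their own mean distance in Delta9 replicate 3, at 1.98 and 1.33, and far below it in Delta9 replicate 1, at -1.13 and -1.07. Cx3cr1 was the reverse, at 0.86 in Delta9 replicate 1 and -1.81 in Delta9 replicate 3.

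Probe sets other than the chosen ones had the same sign where they had signal. For the 14 members with more than 1 probe set there were 26 others, of which 23 had the same sign. All 15 with a mean above that of the median gene had the same sign and were lowest on WT replicate 3. The 3 of opposite sign, of Fcgr2b, Ptprc and Cd53, were dim, with means up to 2.56, and differed by -0.25 to -0.06. By signal, 33 of the 38 chosen probe sets were in the top 25% of genes and 15 in the top 5%; this describes how well a probe set was measured and does not order the genes by RNA amount.

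Genes of the myeloid lineage beyond the 38 had a similar pattern over the cultures. Of 44 further myeloid genes measured, 42 were higher in Delta9 (46.8% of all genes), with a median difference of 1.09. Of the 44, 0 passed in limma, and at an unadjusted p under 0.05 there were 17 higher and 1 lower. Here and for the lists below, the shares over all genes at that level were 4.54% higher and 6.06% lower. WT replicate 3 was the lowest array for 38, against 15.2% of all genes. Those of lowest p were Rac2, a GTPase of leukocytes, with a difference of 1.58 (SE 0.37), Clec10a, a galactose-binding lectin of macrophages and dendritic cells, with 2.27 (SE 0.53), and Runx1, a transcription factor that mesenchymal cells also make, with -0.49 (SE 0.13). Of 12 toll-like receptors and adaptors 11 were higher, with a median of 0.42, and 0 passed (limma; 4 higher at an unadjusted p under 0.05), led by Tlr1, Tlr4 and the adaptor Myd88 with 1.24 (SE 0.40), 0.59 (SE 0.20) and 0.39 (SE 0.14). Of 13 osteoclast and foam-cell genes 9 were higher, with a median of 0.66, and 0 passed in limma, with 5 higher and 1 lower when the p was not adjusted (under 0.05). Among these the lipid droplet protein Plin2 differed by 1.13 (SE 0.23), the lysosomal glycoprotein Gpnmb by 2.40 (SE 0.66) and Dcstamp, a fusion protein of osteoclasts that was dim here, by -0.53 (SE 0.15).

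The largest differences among the 160 genes of the other lists were those of Ccl6 and Ccr1, in the chemokine list. Of 16 chemokines and receptors of myeloid cells 12 were higher (46.8% of all genes), with a median of 0.75, and 0 passed in limma. At an unadjusted p under 0.05 in limma there were 7 higher, against 4.54% of all genes. Ccl6, a chemokine made by macrophages, read 8.24, 7.30 and 8.36 in Delta9, against 5.12, 4.04 and 3.59 in WT. Here WT replicate 1 was not among the Delta9 samples, and the difference of 3.72 (SE 0.44) narrowly missed the threshold (limma adjusted p 0.0597). Ccl9, a close relative, read 8.99, 8.38 and 9.30 in Delta9, against 7.82, 6.47 and 5.50 in WT, and differed by 2.29 (SE 0.55). Ccr1, the receptor of both, read 7.72, 6.53 and 3.997 in Delta9, against 3.19, 2.98 and 2.43 in WT, so Delta9 replicate 3, the culture highest in most members, was lowest in Ccr1 among the Delta9 samples (difference 3.21, SE 0.84, limma adjusted p 0.282).

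Both ligands of Csf1r had lower means in Delta9. Csf1, the main ligand of Csf1r and a product of fibroblasts, read 9.43, 9.09 and 8.96 in Delta9, against 9.72, 9.46 and 9.37 in WT; it was chosen after its values were seen (difference -0.36, SE 0.16, limma adjusted p 0.496). Il34, the other ligand, was dim and differed by -0.49 (SE 0.19). Csf2rb, the shared receptor chain for GM-CSF, IL-3 and IL-5, read 6.75, 6.45 and 7.52 in Delta9, against 6.16, 4.98 and 4.31 in WT (difference 1.76, SE 0.48), and Il4ra, the IL-4 receptor, differed by 0.68 (SE 0.28). Of this axis 7 of 10 genes were higher (46.8% of all genes), with a median of 0.02, and 0 passed in limma. Only 4 of the 10 were above the median gene, so this count and median rest largely on dim genes. With the p not adjusted (under 0.05) there were 2 higher and 1 lower, against 4.54% and 6.06% of all genes. The MHC class II list, of genes expressed by activated macrophages and dendritic cells, was mostly dim, with 2 of its 6 genes above the median gene. Gene means ran from 2.95 to 5.13. The median difference was -0.07, with 2 of 6 higher and 0 past the threshold in limma. With signal this low, the median does not show that these genes were unchanged. At an unadjusted p under 0.05 in limma there was 1 higher (4.54% of all genes), namely H2-DMa with 1.01 (SE 0.41). H2-Eb1 and H2-Ab1 differed by 0.26 (SE 0.12) and -0.12 (SE 0.11).

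**Figure D5:**
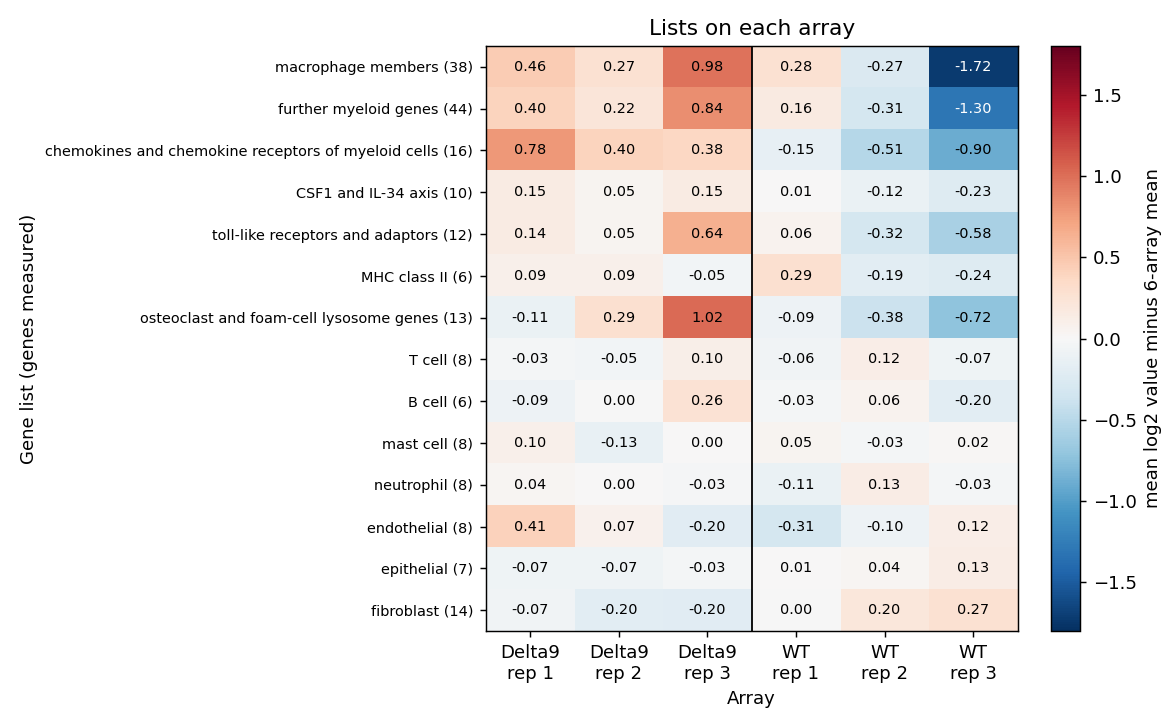
Mean log2 value minus the 6-array mean for the 38 members and 13 other gene lists (rows, with the number of genes measured) on each array (columns, Delta9 left of WT). The members run from 0.98 to -1.72 and the further myeloid genes from 0.84 to -1.30, while the fibroblast row runs from -0.20 to 0.27 and is highest in WT replicate 3.

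Markers of other blood lineages were dim by their means over the 6 arrays: 1 T cell marker and 0 of the B cell, mast cell and neutrophil markers were above the median gene. In Delta9 replicate 3, however, the T cell marker Cd4 read 6.34, against 4.35 to 4.87 on the other arrays. The B cell marker Cd22 read 6.05 there, against 4.15 to 4.63. T cell markers had gene means of 2.28 to 4.94, B cell markers 2.45 to 4.71, mast cell markers 2.14 to 3.79 and neutrophil markers 2.48 to 3.23, and their list means, relative to the 6-array mean, stayed between -0.20 and 0.26. Median differences were -0.01 for T cell (8 genes), 0.10 for B cell (6 genes), -0.00 for mast cell (8 genes) and -0.01 for neutrophil markers (8 genes), with 0 past the threshold in any (limma; 0, 1, 1 and 1 at an unadjusted p under 0.05). The lowest p in these lists belonged to Cd8a with -0.30 (SE 0.15), Cd79b with 0.27 (SE 0.10), Tpsb2 with -0.40 (SE 0.11) and Elane with -0.23 (SE 0.09). Endothelial markers had a median of 0.18 (8 genes, 7 higher) and epithelial markers -0.10 (7 genes, 1 higher), with 0 past the threshold (limma; 0 and 1 at an unadjusted p under 0.05). The 14 fibroblast markers were strong on all 6 arrays, with means of 7.54 to 13.14; 13 were lower in Delta9, with a median of -0.24, where 53.2% of all genes were lower, and 0 passed (limma; with p not adjusted, 2 lower under 0.05). Their list mean was -0.07, -0.20 and -0.20 in Delta9, against -0.00, 0.20 and 0.27 in WT, so WT replicate 3, lowest in macrophage genes, had the highest mean in these and was the highest array for 6 of the 14 (27.2% of all genes). Dcn, Col1a1 and Lum, all matrix genes, differed by -0.78 (SE 0.27), -0.26 (SE 0.08) and -1.07 (SE 0.51).

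The pattern of genes outside the 38 was compared with the mean of the members. Among 1120 other genes with a mean above that of the median gene and an SD of at least 0.5, the 12 with the highest Pearson r over the 6 arrays (0.99 to 1.00) were Kif3a, a kinesin motor subunit, Evi2a, Hpgds, a prostaglandin D synthase, Lmo2, a transcription cofactor of blood cells, Tlr13, a receptor for bacterial RNA, Cyth4, Prkcb, Lair1, an inhibitory receptor of leukocytes, C3ar1, the receptor for complement C3a, Ptpre, Casp1, the inflammasome protease, and Myo1g. Of these 12, Tlr13 and C3ar1 are in the other lists. C3ar1 read 9.45, 9.62 and 10.34 in Delta9, against 9.67, 8.73 and 6.87 in WT, and Kif3a read 6.95, 6.89 and 7.26 in Delta9, against 6.91, 6.39 and 5.47 in WT. The 6 genes of most negative r (-0.98 to -0.96) were Mxra7, Cpe, Fgf9, Cgref1, Creb3l2 and Col2a1. Mxra7 read 7.45, 7.44 and 6.82 in Delta9, against 7.54, 7.89 and 8.60 in WT, and Fgf9, a fibroblast growth factor, read 5.20, 5.36 and 4.86 in Delta9, against 5.85, 6.07 and 7.05 in WT. These coefficients describe 6 shared arrays, with WT replicate 3 at the end of the range in each.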

How the data were processed

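RNA of 6 primary fibroblast cultures was measured on 6 Affymetrix arrays. Per the labels' protocols, RNA was extracted with Trizol and labelled with the One Cycle Target Labeling kit. The deposited values are log2 probe set values, with the log base inferred from their range of 1.49 to 13.61; the array medians ran from 3.36 to 3.43. How the probes were summarised and normalized is not given in the sources used here. No detection calls were used, and precision is limited by having 3 arrays in each group.

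Of 45101 probe sets 64 controls were set aside, 34945 had 1 symbol, 932 several and 9160 none. Names came from the platform annotation; 34741 probe sets were matched by Entrez identifier to RefSeq (GRCm38.p6), and 0 symbols were updated. Delta9 was compared with WT over 18193 genes with limma 3.58.1 (R 4.3.3; lmFit and eBayes with trend), with no filter, and p-values were adjusted over all genes by the Benjamini-Hochberg method (threshold 0.05). The fit was tested on simulated data with noise drawn independently for each gene. That test does not cover the shared movement of the members over the arrays. The members, lists and comparisons were chosen with earlier results of these data known, so counts over a list are descriptions. Of 172 genes in 13 other lists 160 were measured, and the others were not analysed here. All members could be named; values on every array were given for the leading markers, the 6 members of lowest p and the 6 of widest range. Of each other list the 3 genes of lowest p could be named, most by their difference and standard error, and fewer for the cell type lists. Figures were drawn with matplotlib 3.10.9.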

Additional observations from a re-analysis of the deposited data

How the results depend on the processing

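The higher mean of the members in Delta9 kept its direction in all settings tried: the median difference was 1.07 with quantile normalization, 1.09 without the dimmest 40% of genes (37 members left), 1.01 with the mean of the probe sets of a gene, 1.06 without _x_at and _s_at probe sets and 0.76 with array weights. Leaving out single samples gave medians between 0.52 and 1.58. At an unadjusted p under 0.05 in limma there were between 3 members (without Delta9 replicate 3, 13.7% of all genes) and 31 (without WT replicate 1, 11.2%). With all arrays there were 12 (10.6% of all genes). With single samples left out, members without overlap ran from 13 to 29, against 13 with all arrays. The shares of all genes higher without overlap were 12.6% without WT replicate 1, the setting with 29, and 7.27% with all arrays. Leaving out an array cannot lower this count, so its floor of 13 was fixed beforehand and shows no stability. With quantile normalization the count was 10. With any single sample left out 0 members passed the adjusted threshold. Array weights gave 1 member past the adjusted threshold, Msr1, and 3 genes of the other lists (Ccl6, Ccr1 and Plin2), against 0. Over all genes 0.764% then passed, against 0.0605%. The poly-A split as a block gave 27 members at an unadjusted p under 0.05 in limma (18.1% of all genes). It also gave 5 other list genes past the adjusted threshold (Ccl6, Ccl9, Csf2rb, Lipa and Plin2), where 0.819% of all genes passed. Within the 4 arrays of higher poly-A signal there were 24 members at an unadjusted p under 0.05 in limma (16.0% of all genes). There were 30 without overlap (22.9% of all genes were higher without overlap). The other list genes past the adjusted threshold were 3 (Ccl6, Ccr1 and Plin2), where 0.335% of all genes passed. The other list genes past the threshold ran from 0 to 5 with single samples left out, the 5 without Delta9 replicate 3 being Ccl6, Ccr1, Plin2, Dcn and Lum. The share of all genes passing in that setting is not given here, so the 5 are not read as a result about these lists. A threshold of an unadjusted p of 0.05 in place of the adjusted one gives 12 members; an adjusted p of 0.10 gives 0.

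Without Delta9 replicate 3 and WT replicate 3 together, a setting added after seeing the data, 7 members had an unadjusted p under 0.05 (14.9% of all genes). There 1 other list gene passed (Ccr1), and the share of all genes passing is not given here either. With 1 sample or both replicates 3 left out, 8 members changed sign in 1 setting each: Cx3cr1 without WT replicate 3, and the others without both replicates 3. The ranges were -0.041 to 1.11 for Cx3cr1, -0.026 to 1.51 for Csf1r, -0.18 to 1.56 for Adgre1, -0.30 to 1.34 for Ms4a7, -0.20 to 1.34 for Cybb, -0.10 to 1.69 for Tyrobp, -0.071 to 1.66 for Ptprc and -0.27 to 1.31 for Cd52. Within the 4 arrays of higher poly-A signal Cx3cr1 differed by 1.41. The cause was not tested. Same-numbered samples did not deviate together (r of -0.40, 0.17 and -0.43 over genes). These deviations are from means of 3 arrays, so they cannot decide whether the numbers pair the samples. With the replicate block 0 members passed, 9 had an unadjusted p under 0.05 (7.41% of all genes) and the median was 1.08; over all genes 0 passed, against 11.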
